A study of Rattus norvegicus with 16 samples.

Results

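Retinoic acid genes were followed in embryonic kidney tissue of 2 inbred rat strains. The 9 genes were the retinal dehydrogenases Aldh1a1, Aldh1a2 and Aldh1a3, the receptors Rara, Rarb and Rarg, the cellular binding proteins Crabp1 and Crabp2, and the degrading enzyme Cyp26b1. They were taken by symbol, as probe sets with exactly 1 of these symbols, from 16986 gene symbols in all. At gene level 8 of 21371 probe sets matched, 1 for each gene except Rarb, and at exon level 83 of 213067 matched and covered all 9 genes. One strain was MWF (Munich Wistar Frömter), which inherits albuminuria and has a low nephron number, sampled at E15.5. The other was SHR, the spontaneously hypertensive rat, sampled at E16.0. Each strain had 4 arrays of male tissue with no treatment, and every array was summarised both per gene and per exon probe set, so the 2 summaries are not independent. Strain and embryonic day cannot be told apart, nor can fewer cells of a type and less RNA per cell in a whole organ. Whether each array stands for its own animal or litter is not stated in the labels. The p-values therefore reflect only the spread of these arrays, which may be technical.

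Retinoic acid is made from retinol in 2 oxidations, the second by the Aldh1a enzymes. Crabp proteins carry it in the cytosol, Cyp26 enzymes inactivate it, and Rar receptors bind it in pairs with Rxr receptors on DNA. In the mouse kidney the stroma makes retinoic acid through Aldh1a2, and stromal Rar receptors are needed for normal expression of the receptor tyrosine kinase gene Ret in the ureteric bud, the branching epithelium. Vitamin A shortage during gestation lowers nephron number in the rat.

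SHR replicate 2 stood apart from the other SHR arrays. On the first principal component of all gene-level values (46.8% of the variance) it lay at -1.63, while the other SHR arrays lay between 25.0 and 27.8 and the MWF arrays between -20.8 and -15.7. The mean of the sympathoadrenal genes Th, Dbh, Chga and Chgb, which make catecholamines or secretory granules, was 6.03 in SHR replicate 2, against 10.8 to 11.2 in the other 3 of that strain. MWF replicate 1 had 8.14, against 6.14 to 6.30 in the other 3. Values here are log2 intensities and differences are MWF minus SHR. The kidney identity of the tissue was checked on nephron progenitor markers, of which 5 of 7 were measured, with list means between 9.92 and 10.2 in both strains. Olfactory and vomeronasal receptor genes, used as a rough guide to probe sets without kidney signal, had a 95th percentile of 8.21 at gene level (105 probe sets) and 6.58 at exon level (1768 probe sets). The gene-level percentile lies close to the array medians of all gene-level probe sets (8.17 to 8.21), so a value below it does not show absence of signal.

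Promoter DNA of some of these genes is shown first. Rar and Rxr pairs bind direct repeats of a hexamer, and RefSeq promoter windows of GRCr8 (250 bases before to 50 after a start) were searched on both strands for the hexamer AGGTCA, its variant GGTTCA and a further variant, AGTTCA, alone or followed on the same strand by any of these after 2 or 5 bases. All 9 genes had a window, 10 windows in all because Rarg had 2. The Rarb window held the only such repeat among them, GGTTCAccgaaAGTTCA with a gap of 5 bases, at chr15:11336416-11336432 on the plus strand, starting 24 bases after the annotated start. Repeats with that gap occurred in 0.335% of all 33469 windows and repeats with a gap of 2 bases in 0.128%. Cyp26a1, the related degrading enzyme gene, held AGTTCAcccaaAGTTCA on the strand opposite to the gene, at chr1:244883730-244883746. Single hexamers occurred in 35.9% of all windows, and among the 10 windows in those of Rarb and in 1 of Rarg. Rarb is shown because it carries the repeat, and Aldh1a3 and Crabp2 because they are the genes that passed the test between strains. Capitals mark the hexamers of the repeat, and the latter windows hold none of the searched letters. The windows lie at chr15:11336142-11336441 (plus strand), chr1:129427594-129427893 (minus strand) and chr2:175714612-175714911 (plus strand).
Rarb: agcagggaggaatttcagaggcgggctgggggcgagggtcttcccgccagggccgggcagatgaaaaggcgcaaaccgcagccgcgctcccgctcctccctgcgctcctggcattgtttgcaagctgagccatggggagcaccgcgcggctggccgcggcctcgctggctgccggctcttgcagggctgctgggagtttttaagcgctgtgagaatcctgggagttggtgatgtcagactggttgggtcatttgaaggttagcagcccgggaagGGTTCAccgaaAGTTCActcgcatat
Aldh1a3: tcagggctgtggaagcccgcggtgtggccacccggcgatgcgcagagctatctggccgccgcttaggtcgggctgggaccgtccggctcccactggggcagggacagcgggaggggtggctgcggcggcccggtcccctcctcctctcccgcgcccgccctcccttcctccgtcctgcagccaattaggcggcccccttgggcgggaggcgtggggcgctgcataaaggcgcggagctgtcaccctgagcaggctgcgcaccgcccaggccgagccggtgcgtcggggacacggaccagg
Crabp2: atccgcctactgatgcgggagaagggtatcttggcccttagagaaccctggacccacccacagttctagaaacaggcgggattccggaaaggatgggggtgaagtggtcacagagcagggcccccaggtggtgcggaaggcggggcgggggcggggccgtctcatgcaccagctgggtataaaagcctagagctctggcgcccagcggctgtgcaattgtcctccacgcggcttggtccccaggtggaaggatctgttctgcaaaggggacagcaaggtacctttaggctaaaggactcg
A match is a description of these letters and not of binding.

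Of the 8 genes measured at gene level, Aldh1a3 was higher in MWF and Crabp2 was lower, and the other 6 did not pass. The test was limma over all 21371 probe sets with Benjamini-Hochberg adjustment at 0.05, which called 6.58% of all probe sets, 3.18% higher and 3.4% lower in MWF. The strains did not overlap for 3 of the 8 (Aldh1a3, Rarg and Crabp2), against 14.4% of all probe sets. An unadjusted p under 0.05 was reached by 4 of the 8 (these 3 and Cyp26b1) and by 22.4% of all probe sets. The median difference of the 8 was -0.03, and that of all probe sets was 0.02. The 3 dehydrogenase genes all lay above 0, while Rara, Rarg, Crabp2 and Cyp26b1 lay below it. Of all probe sets 56.3% had a positive difference.

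**Figure D1:**
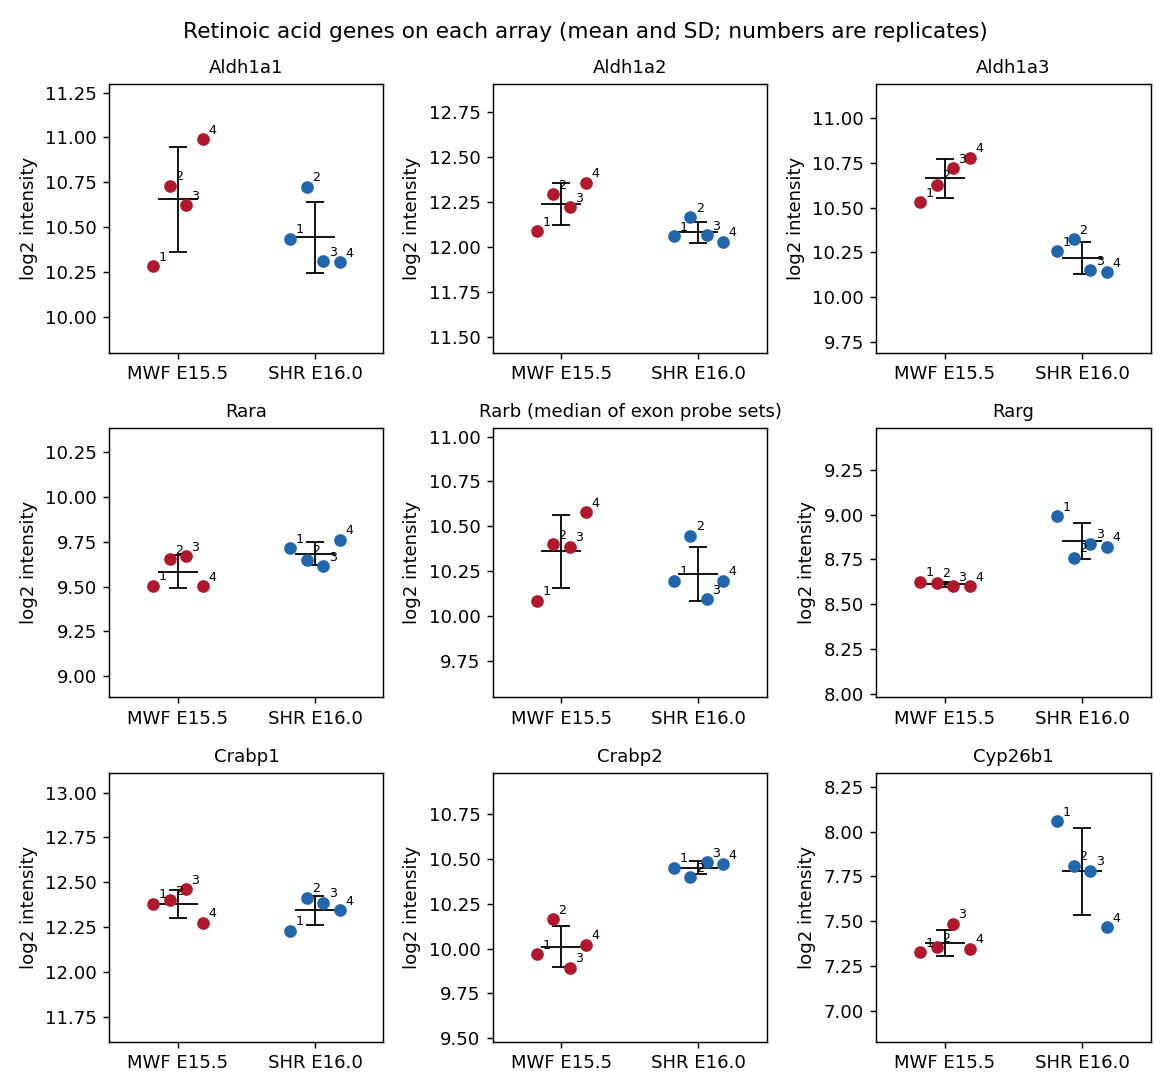
Log2 intensity (vertical axis, a span of the same size in every panel) of each retinoic acid gene on each array, with MWF in red and SHR in blue, replicate numbers beside the points, and bars for the mean and SD of 4 arrays. Rarb is the median of its exon-level probe sets. Aldh1a3, Rarg and Crabp2 show no overlap between strains.

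Among the enzymes of synthesis, Aldh1a3 separated the strains. In the mouse this enzyme has been described in the ureteric bud. It read 10.53, 10.63, 10.72 and 10.78 in MWF replicates 1 to 4 and 10.26, 10.32, 10.15 and 10.14 in SHR replicates 1 to 4. All MWF arrays lay above all SHR arrays. The means were 10.66 ± 0.11 and 10.22 ± 0.09 (SD, n = 4), a difference of 0.45 ± 0.07 (SE) or 1.36-fold, with a limma adjusted p of 0.00837. Without each array in turn the difference lay between 0.41 and 0.49 and passed every time. With the sympathoadrenal mean as a covariate it was 0.33 and did not pass (limma adjusted p = 0.0985). Except in SHR replicate 2, that mean was higher in SHR than in any MWF array, so the fit separates it poorly from strain.

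All 15 exon-level probe sets of Aldh1a3 lay above 0, with a median difference of 0.37. The strains did not overlap in 7 of them, against 8.83% of all exon-level probe sets, and 2 passed over all 213067 (probe sets 2 and 11 by identifier, at 0.49 and 0.56, limma adjusted p of 0.0431 and 0.0252). At exon level 1.93% of all probe sets passed, 0.892% higher and 1.04% lower in MWF, and 13.7% had an unadjusted p under 0.05. Of the 83 members 3 passed, and each of the 3 calls was lost in most fits without 1 array. Such fits also have fewer arrays to test with. None of the 3 was kept without MWF replicate 3, MWF replicate 4, SHR replicate 1, SHR replicate 3 or SHR replicate 4. Both Aldh1a3 calls were lost without MWF replicate 2, and the third, in Crabp2, without MWF replicate 1 or SHR replicate 2. Probe set 8 had the widest gap, 0.96, but its means of 6.39 in MWF and 5.43 in SHR were within the range of the receptor genes. Probe sets of a gene share the same RNA and are not replicates.

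Of 7 ureteric bud markers 5 were measured (Ret, Wnt9b, Gata3, Calb1 and Emx2), all 5 lay above 0 and none passed. Their mean ran from 8.67 to 8.80 in MWF and from 8.43 to 8.65 in SHR. MWF replicate 4, the highest array for Aldh1a3, was lowest of its strain. SHR replicate 2 was highest of its strain both in this mean and for Aldh1a3. The part of these markers in the Aldh1a3 difference was not tested. Across the 8 arrays the genes most like Aldh1a3, by Pearson correlation among 7409 probe sets above the median intensity, were Gprc5c (r = 0.993), Etv4 (r = 0.989) and Spc25 (r = 0.988). Gprc5c encodes an orphan receptor of a retinoic acid-induced family, Etv4 a transcription factor downstream of Ret, and Spc25 a kinetochore protein. These likenesses are descriptions over arrays that already differ by strain.

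Aldh1a2, the main enzyme of retinoic acid synthesis in the embryo, did not pass. It read 12.09, 12.29, 12.22 and 12.36 in MWF and 12.06, 12.17, 12.07 and 12.03 in SHR, replicates 1 to 4. The strains overlapped only through MWF replicate 1 and SHR replicate 2. The difference was 0.16 (95% interval -0.0021 to 0.32) (limma adjusted p = 0.229). With the median of its exon-level probe sets it was 0.23 with no overlap and did not pass (limma adjusted p = 0.120), and with the sympathoadrenal covariate it was 0.056. All 14 exon-level probe sets lay above 0, between 0.034 and 0.25, and none passed, though 1 reached an unadjusted p under 0.05.

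Aldh1a1, a dehydrogenase of several adult and embryonic epithelia, varied most within a strain among the 3. It read 10.28, 10.73, 10.62 and 10.99 in MWF and 10.43, 10.73, 10.31 and 10.30 in SHR, replicates 1 to 4. MWF replicate 1 was the lowest of all 8 arrays, and SHR replicate 2 was level with MWF replicate 2. The difference was 0.21 (95% interval -0.13 to 0.55; limma adjusted p = 0.454). Without SHR replicate 2 and MWF replicate 1 together it was 0.43 and passed (limma adjusted p = 0.0423), in only 1 of 17 alternatives. These are the highest SHR and the lowest MWF array for this gene, so their removal widens the difference by construction. With the sympathoadrenal covariate the difference was -0.09. At exon level 13 of 14 probe sets were above 0 and none passed, and the largest gap, 0.58, was in a probe set with means of 5.51 and 4.93, within the range of the receptor genes. The platform annotation gives the gene-level probe set a second transcript that did not match the RefSeq table, so specificity against close copies of this enzyme was not established.

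The lowest and the highest array of each strain were the same for the 3 dehydrogenase genes, while the arrays between them changed places. MWF replicate 1 was lowest and MWF replicate 4 highest of the MWF arrays in each of them, and SHR replicate 4 was lowest and SHR replicate 2 highest of the SHR arrays. The exon-level median of Rarb also had MWF replicate 1 lowest (10.09), MWF replicate 4 highest (10.58) and SHR replicate 2 highest of its strain (10.45). MWF replicate 1 had the highest sympathoadrenal mean of its strain, and SHR replicate 2 had the lowest. Of 8 sympathoadrenal and neural markers 6 were measured and all 6 lay below 0, with 1 called, and the list mean ran from 6.70 to 8.05 in MWF and from 6.65 to 10.5 in SHR.

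**Figure D2:**
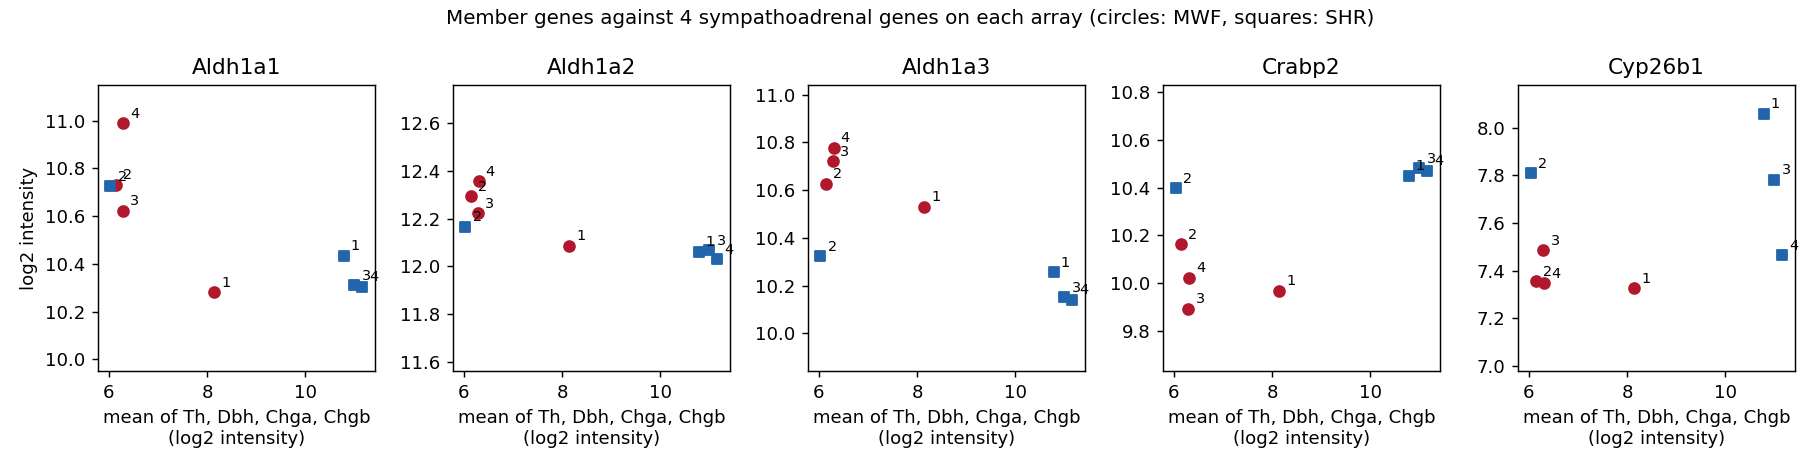
Log2 intensity of 5 retinoic acid genes (vertical axes, equal spans) against the mean log2 intensity of Th, Dbh, Chga and Chgb (horizontal axes) on each array, circles for MWF and squares for SHR, labelled by replicate. SHR replicate 2, at 6.03 on the horizontal axis, is the highest SHR array for the 3 dehydrogenase genes. For Crabp2 it is the lowest SHR array, at 10.40, close to the others.

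No receptor gene passed at gene level. Rarg, the gamma receptor, read 8.63, 8.62, 8.60 and 8.60 in MWF and 8.99, 8.76, 8.84 and 8.82 in SHR, replicates 1 to 4. The MWF arrays lay within a narrow range and all below the SHR arrays. The difference was -0.24 ± 0.06 (SE; 95% interval -0.38 to -0.10), just short of the threshold (limma adjusted p = 0.0537). It passed without SHR replicate 2 (-0.27, limma adjusted p = 0.0311), with array weights (-0.25, limma adjusted p = 0.0247) and without dim probe sets (limma adjusted p = 0.0320). In the other 14 of 17 alternatives Rarg did not pass, with limma adjusted p up to 0.316. Among these was the median of its exon-level probe sets (-0.32, limma adjusted p = 0.140), where the strains overlapped. Of its 10 exon-level probe sets 9 lay below 0, with a median of -0.29, and none passed, though 3 reached an unadjusted p under 0.05.

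Probe set 3 of Rarg had the largest difference of these, -0.42, with no overlap between strains, and did not pass (limma adjusted p = 0.0706). Probe set 6 of Rarg went the other way. Its means were 10.61 in MWF and 10.50 in SHR, a difference of 0.11. Relative to the median of Rarg on each array it was higher in MWF by 0.43, short of the threshold in the exon usage test (limma adjusted p = 0.0615). That was the smallest adjusted p of all member probe sets in this test. Probe set 6 passed there with array weights (0.44, limma adjusted p = 0.0498) and without dim probe sets (0.50, limma adjusted p = 0.0295). Of the 82 member probe sets that could be tested for usage 0 passed with limma and 4 reached an unadjusted p under 0.05, against 1% and 10.5% of all 168036 tested.

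Rara, the alpha receptor, read 9.505, 9.654, 9.668 and 9.502 in MWF and 9.713, 9.651, 9.612 and 9.760 in SHR, replicates 1 to 4. The strains overlapped, and the difference was -0.10 (95% interval -0.25 to 0.048; limma adjusted p = 0.409). Every one of its 9 exon-level values was below 0, between -0.28 and -0.0025, and none passed. Of all exon-level probe sets 47.5% had a negative difference.

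Rarb, the beta receptor and a known target of retinoic acid through the repeat printed above, was measured at exon level only. The median of its 8 probe sets was 10.09, 10.40, 10.39 and 10.58 in MWF and 10.20, 10.45, 10.09 and 10.20 in SHR, replicates 1 to 4. MWF replicate 1 was the lowest of all 8 arrays, and SHR replicate 2 lay among the MWF arrays. The difference of these medians was 0.13 (95% interval -0.12 to 0.38; limma adjusted p = 0.615 over 16582 genes). Of the 8 probe sets 4 lay above 0 and 4 below, and none passed. Probe set 1 showed no overlap between strains, at 8.73 in MWF and 8.45 in SHR (limma adjusted p = 0.231).

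**Figure D3:**
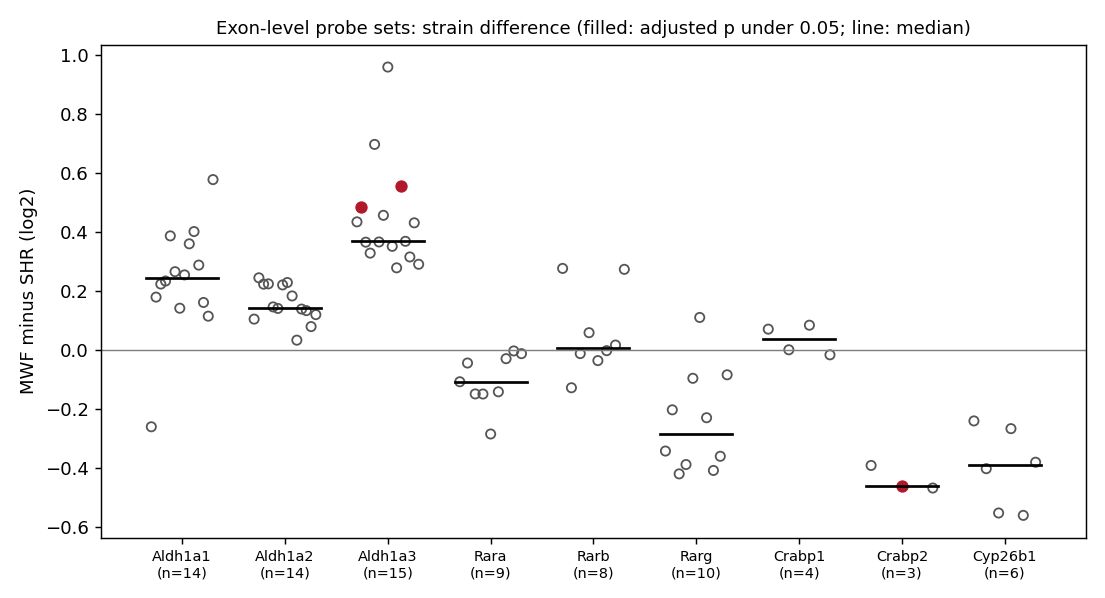
MWF minus SHR difference (log2, vertical axis) of each of the 83 exon-level probe sets, grouped by gene, with the gene median as a line and filled points for those that passed over all 213067. The 15 probe sets of Aldh1a3 all lie above 0 and the 3 of Crabp2 and 6 of Cyp26b1 all lie below.

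The binding proteins differed from each other. Crabp2, which delivers retinoic acid to its nuclear receptors, read 9.97, 10.16, 9.89 and 10.02 in MWF and 10.45, 10.40, 10.48 and 10.47 in SHR, replicates 1 to 4. All MWF arrays lay below all SHR arrays, and the SHR arrays lay close together, with SHR replicate 2 the lowest of them. The means were 10.01 ± 0.11 and 10.45 ± 0.04 (SD, n = 4), a difference of -0.44 ± 0.07 (SE), 1.36-fold lower in MWF, with a limma adjusted p of 0.00611. Leaving out each array in turn gave -0.49 to -0.40 and the call was kept every time. With the sympathoadrenal covariate, which largely follows strain, the difference was -0.42 and the call was lost (limma adjusted p = 0.0664). Its 3 exon-level probe sets lay at -0.39, -0.46 and -0.47, and the second passed (limma adjusted p = 0.0381). Of 9 stromal markers all were measured, 8 lay below 0 and 1 (Lum) passed. Their mean lay between 9.90 and 10.1 in MWF, at 10.01 in SHR replicate 2 and from 10.4 to 10.5 in the remaining SHR replicates. The markers did not move together in SHR replicate 2. It was lowest of its strain for Pdgfra, Pdgfrb, Dcn, Lum (9.99), Col1a1, Col3a1 (9.05) and Meis1. For Foxd1 (8.53) it was highest, and for Tbx18 (9.24) it lay between the others. The part of these markers in the Crabp2 difference was not tested.

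The genes most like Crabp2 over the 8 arrays were Lmcd1 (r = 0.991), Saraf (r = 0.977) and Lsamp (r = 0.970), which encode a LIM domain protein, a regulator of store-operated calcium entry and a neuronal adhesion protein. Their difference between strains follows from their choice and was not read as a result.

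Crabp1, the other cytosolic carrier, read 12.38, 12.40, 12.46 and 12.27 in MWF and 12.23, 12.41, 12.39 and 12.34 in SHR, replicates 1 to 4. The strains overlapped. The difference was 0.04, and its 95% interval from -0.11 to 0.19 leaves out a change of the size seen for Crabp2 (limma adjusted p = 0.798). Its 4 exon-level probe sets lay between -0.016 and 0.085.

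Cyp26b1, which hydroxylates retinoic acid, read 7.33, 7.36, 7.49 and 7.35 in MWF and 8.06, 7.81, 7.78 and 7.47 in SHR, replicates 1 to 4. SHR replicate 4 lay within the MWF range and the other SHR arrays above it. The difference was -0.40 ± 0.11 (SE; 95% interval -0.66 to -0.14) and did not pass (limma adjusted p = 0.0715). All 8 values were below the gene-level 95th percentile of the receptor genes, and Cyp26b1 was the only one of the 8 genes with a mean there. At exon level 81 of the 83 member probe sets had a mean above the percentile of 6.58, all 6 of Cyp26b1 among them. The dimmest of these 6 had means of 6.43 in MWF and 6.80 in SHR. In 14 of 16 alternatives Cyp26b1 did not pass, with limma adjusted p up to 0.196. It passed without SHR replicate 4 (-0.50, limma adjusted p = 0.0186), the SHR array nearest to MWF, whose removal widens the difference by construction. It also passed with the median of its 6 exon-level probe sets (-0.50, limma adjusted p = 0.0179), where the strains did not overlap. Of all such gene medians 4.96% passed and 11.3% showed no overlap. All 6 exon-level probe sets lay below 0, 5 of them with an unadjusted p under 0.05 and none past the threshold. Of 5 markers of testis, another fetal organ that expresses Cyp26b1, 4 were measured and none passed. They went opposite ways, with Amh (no overlap between strains) and Dmrt1 at 0.73 and 0.12, and Insl3 and Gata4 at -0.05 and -0.78. The mean of these testis markers ran from 6.61 to 7.18 in MWF and from 6.68 to 7.06 in SHR. Adrenal cortex markers, 4 of 7 measured and none called, had means of 6.54 to 6.66 in MWF and 6.34 to 6.52 in SHR. All these testis and adrenal cortex means lay below the 95th percentile of the receptor genes.

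In the rest of the pathway 4 of 39 measured genes passed, against 6.58% of all gene-level probe sets. Rbp2 and Gprc5c were higher and Ppard and Tgm2 lower in MWF. Of the 39, 20 lay above 0 and 19 below, with a median of 0.0005, against 56.3% of all probe sets above 0. Tgm2, a transglutaminase gene induced by retinoic acid in many cells, read 9.31, 9.28, 9.26 and 9.12 in MWF and 9.88, 9.61, 9.80 and 9.90 in SHR, replicates 1 to 4. The strains did not overlap, the difference was -0.56 ± 0.08 (SE; limma adjusted p = 0.00405), and its exon-level values were below 0 in 13 of 13. With the median of these probe sets it was -0.35 and did not pass (limma adjusted p = 0.0547). Among 14 measured genes reported as retinoic acid targets, 8 lay above 0 and 6 below.

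Gprc5c had 2 gene-level probe sets of unequal size. The one with the higher mean intensity over all arrays differed by 0.30 ± 0.06 (SE; limma adjusted p = 0.0236) and the other by 1.58 ± 0.14 (SE; limma adjusted p = 0.000235). Gprc5a of the same family was at 0.42 and Ret at 0.35, and neither passed.

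Of the uptake and storage genes 5 of 7 were measured. Rbp2, a cellular retinol-binding protein gene best known from the intestine, was higher by 0.34 ± 0.07 (SE; limma adjusted p = 0.0234), with 3 of 4 exon-level probe sets above 0. With the median of these probe sets it was 0.16 and did not pass (limma adjusted p = 0.306). Rbp4, which carries retinol in plasma and is made mainly by the liver, ran from 6.36 to 8.41 in MWF and from 6.24 to 8.43 in SHR. Its difference was 0.38 ± 0.55 (SE). The liver markers, 4 of 5 measured with none called, varied over the same arrays, with means of 7.88 to 10.4 in MWF and 7.43 to 10.5 in SHR.

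None of 10 measured genes of retinol and retinal conversion passed, and 6 lay above 0. Rdh10, the first enzyme of the route, was at 0.03, and Dhrs3, which turns retinal back into retinol, at -0.07. Rdh12 and Rdh11 had the widest gaps, at 0.15 and -0.15. Cyp26a1 was at -0.05 and did not pass. The means of Rdh12, Cyp26a1, Rbp4, Rxrg and Gprc5a lay below 8.21 in both strains, within the range of the olfactory receptor genes.

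Among 9 measured partner receptors and coregulators, Ppard, a nuclear receptor gene reported as an alternative retinoic acid receptor in mouse cells, was lower by -0.27 ± 0.07 (SE; limma adjusted p = 0.0426), with all 8 exon-level probe sets below 0. Rxra and Rxrb, the usual Rar partners, were at -0.01 and 0.06, and Rxrg at -0.19 without passing. Among the fits without 1 array, Rbp2 passed only without MWF replicate 4 or SHR replicate 2, Gprc5c only without MWF replicate 1 or SHR replicate 2, and Ppard only without SHR replicate 3. With the sympathoadrenal covariate only Tgm2 of the 4 passed (-0.41, limma adjusted p = 0.0461).

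**Figure D4:**
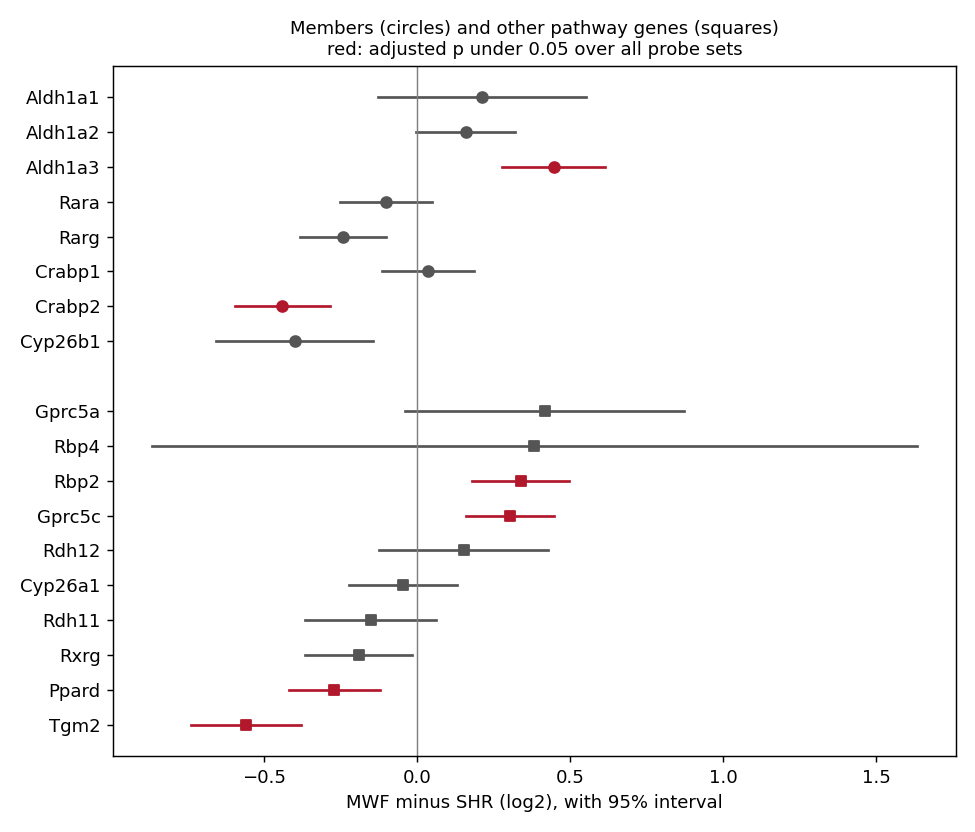
MWF minus SHR difference (log2, horizontal axis) with its 95% interval for the 8 gene-level members (circles) and the named pathway genes (squares), red where the adjusted p over all probe sets is under 0.05. Aldh1a3, Rbp2 and Gprc5c lie above 0 and Crabp2, Ppard and Tgm2 below.

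The remaining marker lists were measured over the same arrays. Endothelial markers, 4 of 6 measured, lay below 0 in all 4 with none called, and macrophage markers, 5 of 5 measured, lay below 0 in 4 with 3 called. Red cell markers, 4 of 5 measured, lay above 0 in all 4 with 2 called. Nephron progenitor markers lay above 0 in 3 of 5 with none called. Of all gene-level probe sets 56.3% lay above 0 and 6.58% were called.

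**Figure D5:**
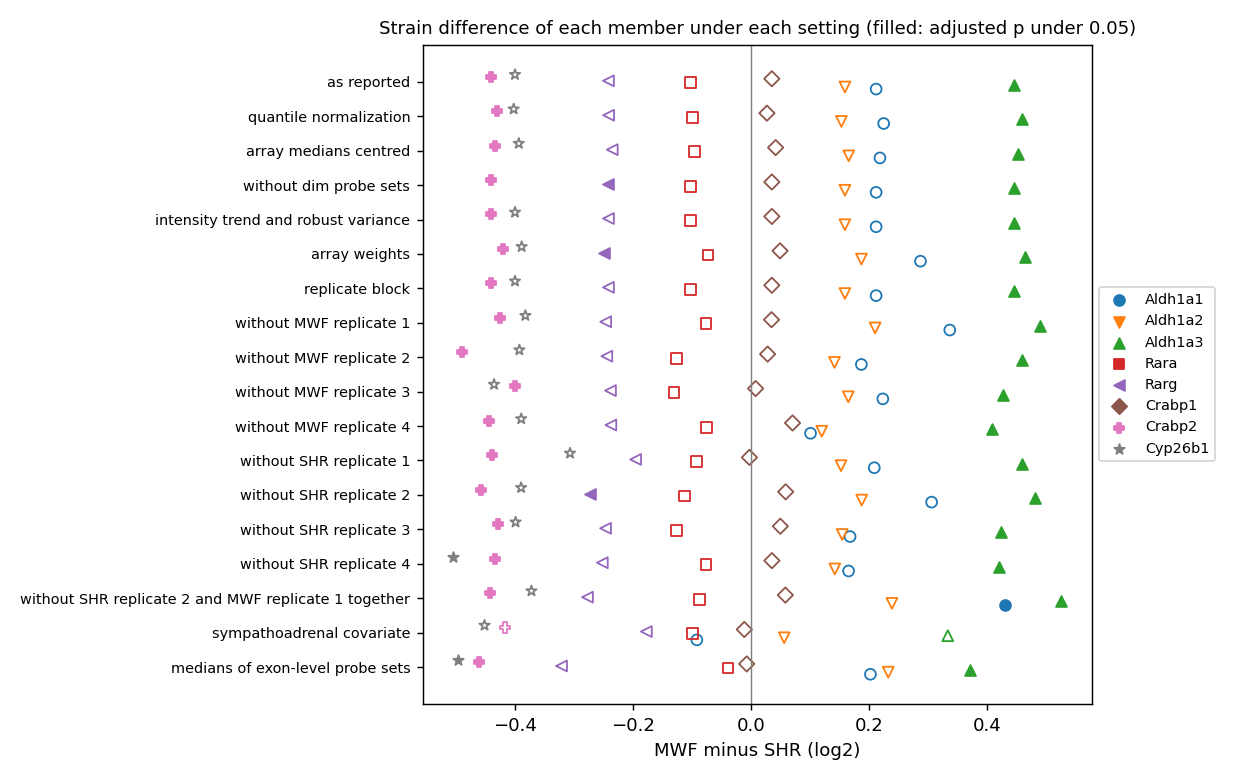
MWF minus SHR difference (log2, horizontal axis) of the 8 gene-level members as reported and under each alternative setting (vertical axis), filled where the adjusted p is under 0.05. Aldh1a3 and Crabp2 are filled in every row except with the sympathoadrenal covariate.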

How the data were processed

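Biotin-labelled total RNA of 8 kidney samples was hybridised to Affymetrix rat gene arrays, per the labels. The deposited values are log2 intensities, already normalized by the authors as far as near-equal array medians show (8.17 to 8.21 at gene level, 7.93 to 7.99 at exon level). Partek is the only tool named, per the submitters' processing notes, and no source used here gives its settings, a genome build or a filter. Arrays have no depth, so their number limits the precision.

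Gene symbols are those of the platform annotation, brought up to date with RefSeq (GRCr8). At gene level 12936 had 1 symbol, 184 several and 8251 none, and at exon level 172924, 1661 and 38482. A gene with several probe sets was represented by the one with the highest mean. The strain contrast was fitted in limma 3.58.1 (lmFit, then eBayes; R 4.3.3) with no covariate, on all probe sets of a level. Exon usage was tested on each exon value minus its gene's median on that array, in genes of at least 3 probe sets, leaving out probe sets equal to that median on every array. Promoters were searched with Python 3.11.15.

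The scripts were tested on simulated data. The alternatives were other scalings, filters and variance models, array weights, left-out arrays, a replicate block, the sympathoadrenal mean as a covariate and medians of exon-level probe sets. Genes were named by rule: all 9 members, pathway genes that passed, the 2 with the largest difference in each pathway list, and the 3 most like each member that passed. Rdh10, Dhrs3, Rxra, Rxrb, Ret, the other Gprc5c probe set, exon-level probe set 6 of Rarg and the marker genes were named beyond it, after their values were seen. The members and lists were chosen with earlier results of these data known.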

Additional observations from a re-analysis of the deposited data

Results flagged for a closer look

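Single arrays far from the other 3 of their strain were sought by Dixon's limit, at the 95% level, for the share of the range taken by the gap to the nearest array. In the 38 groups of arrays of the named genes 0 passed it. In 24 groups of marker means and the first principal component 8 did. Chance gives about 1 in 20 per group, but these groups share arrays, and both sympathoadrenal means share genes. The 8 are therefore not separate events. SHR replicate 2 stood apart in the sympathoadrenal mean of 4 genes (6.03, the others 10.8 to 11.2) and in the longer sympathoadrenal and neural list (6.65, the others 10.2 to 10.5). It was also apart in the stromal mean (10.01, the others 10.4 to 10.5) and on the first principal component (-1.63, the others 25.0 to 27.8). The adrenal cortex mean set it apart too (6.34, the others 6.50 to 6.52), but these values lay within the range of the receptor genes. MWF replicate 1 stood apart in the mean of 4 genes (8.14, the others 6.14 to 6.30), in the longer list (8.05, the others 6.70 to 6.90) and on the first principal component (-15.7, the others -20.8 to -20.6).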

How the results depend on the processing

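Leaving out each array in turn gave 2 to 3 called members, 1 to 4 called pathway genes, 0 to 3 called exon-level member probe sets, 0 called in exon usage and 775 to 2279 called probe sets over all genes (775 without SHR replicate 4, 2279 without SHR replicate 2, and under 1407 by over 1.5 times also without any of MWF replicates 2 to 4, SHR replicate 1 and SHR replicate 3). With SHR replicate 2 and MWF replicate 1 both left out, 5 exon-level member probe sets and 2180 probe sets over all genes passed. With the sympathoadrenal covariate 0 members passed with limma (3 at an unadjusted p under 0.05), with 1 pathway gene and 517 probe sets. Aldh1a1 and Crabp1 turned to -0.092 and -0.011. That covariate was itself higher in SHR than in MWF, except in SHR replicate 2. Taking exon-level medians per gene, 2 pathway genes passed, and Crabp1, Rdh12 and Cyp26a1 turned to -0.0071, -0.065 and 0.11. Without each array in turn Crabp1 ran from -0.0025 (without SHR replicate 1) to 0.071 (without MWF replicate 4). Array weights gave 2397 probe sets and 1 exon usage call. Without dim probe sets the numbers were 872 probe sets, 8 exon-level member probe sets and 1 exon usage call, with fewer probe sets tested. An intensity trend with robust variances gave 6 exon-level member probe sets. The cause of the other moves was not tested. The replicate number as a block gave 1 pathway gene (Tgm2, while Rbp2, Gprc5c and Ppard had limma adjusted p of 0.0518, 0.0566 and 0.0722), 0 exon-level member probe sets (26 at an unadjusted p under 0.05), 2 members and 1312 probe sets. The deviations of same-numbered arrays correlated at 0.0982 to 0.284, over 0.1 in 3 of 4 pairs, and 5 of 8 arrays correlated best with their own number. Pairing was taken only if all 4 exceeded 0.1 and was left undecided here. Of 135 values of single members under alternatives, 123 kept direction and side of the threshold, and of 165 of the other named pathway genes 134 did.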
